A study of Mus musculus with 22 samples.

Results

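Hyperplastic islets were compared with normal islets in the RIP1-Tag2 (RT2) mouse model of pancreatic neuroendocrine tumours. The comparison used the 3 arrays labelled Hyperplastic Islet and the 3 labelled Normal Islet, 6 of the 22 arrays of the series, and covered all 19938 genes with a usable probe set. Both groups carry the RT2 genotype in their labels, so the normal islets are islets of transgenic animals and not of a wild-type strain. In RT2 mice the insulin promoter drives the viral T antigens, which places them in beta cells and not in the other cells of the islet. Total RNA was purified with TRIzol and hybridised to Affymetrix Mouse Gene ST arrays, 1 sample per array. The arrays are titled HyperplasticI-93, Hyperplastic2006, Hyperplastic2007, NormalI-93, Normal2006 and Normal2007, and each code after the group's name is also carried by 1 angiogenic array. Age, sex, treatment and any pooling of animals are not labelled. Since separate animals are not named either, a p-value covers only a spread between samples, which may be technical. That spread was pooled over all 22 arrays, tumours and metastases included, and not taken from the 6 compared arrays alone. Values are log2 intensities as deposited, and wherever 3 values of a group are given, they stand in that order of titles, with I-93 first.

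The large T antigen binds the retinoblastoma protein and the tumour suppressor p53. Retinoblastoma family proteins hold E2F transcription factors in check until cyclin D and cyclin E kinases phosphorylate them, and free E2F then switches on the genes of DNA synthesis. Genes of mitosis are switched on later in the cycle by B-Myb and Foxm1 through a promoter element named the cell cycle homology region (CHR). Adult beta cells divide rarely, and in RT2 mice only some islets become hyperplastic, and fewer still acquire new vessels and grow into tumours.

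The labels were set against marker genes before the comparison. Ins2, an insulin gene, measured 11.14, 11.02 and 11.07 log2 in hyperplastic islets, against 11.02, 11.04 and 10.91 in normal islets, and the granule protein Chga measured 13.04, 13.00 and 13.01 against 13.15, 13.16 and 13.21. Neither gene passed limma's test over all genes (adjusted p = 0.7517 for Ins2 and 0.5475 for Chga), although the Chga values of hyperplastic islets all lay below those of normal islets. Array medians over the 6 arrays lay between 7.08 and 7.14 log2, and correlations between any pair of them across genes lay between 0.9661 and 0.9923. Xist, expressed by the inactive X chromosome of females, measured 11.07, 10.88 and 10.67 in hyperplastic islets, against 10.79, 11.41 and 11.23 in normal islets. Uty, a Y-linked gene, measured 7.75, 7.42 and 8.40 in hyperplastic islets, against 8.49, 5.22 and 7.97 in normal islets. Uty was thus lower on the Normal2006 array than on any other, while Xist was high on all 6 arrays.

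The normal arrays were not alike. The NormalI-93 array stood between the hyperplastic arrays and the other normal arrays for most genes that were higher in hyperplastic islets. Of the 890 genes called higher, 717 (80.6%) had their highest normal value on that array, against 27.0% of all genes tested. Among the 832 genes called lower, 399 (48.0%) had their lowest normal value there, against 30.1% of all genes. Among 287 called list members and named genes, leaving out 1 array moved the fold of 6 by over 1.5 times, and for all 6 that array was NormalI-93 (the fold of Neil3 also moved by over 1.5 times without Normal2007). The values of these 6 genes are given with and without it.

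A gene was called changed when limma's moderated test, adjusted over all 19938 genes by the Benjamini-Hochberg method, gave an adjusted p under 0.05. By this rule 890 genes (4.46%) were higher and 832 (4.17%) lower in hyperplastic islets. These shares are the background of each count of calls in a gene list. The median log2 difference over all genes was -0.013, with quartiles of -0.137 and 0.104. The larger changes were mostly rises, since 274 genes were called higher by at least 1 log2 and 69 lower, and 50 were higher by at least 2 log2 and 2 lower. The 3 differences between samples of the same code were all above 0 for 890 of the 890 rises and all below 0 for 831 of the 832 falls. No overlap between the groups, found for 886 of these rises and 828 of these falls, forces the same sign on all 3 differences. These counts are therefore no separate support for the calls. With each array centred on the median of the tested genes, a setting chosen after seeing the data, 781 genes were higher and 1277 lower, and rises made up 37.9% of the calls in place of 51.7%. With the title code as a replicate block 1000 genes (5.02%) were higher and 871 (4.37%) lower. Without NormalI-93, 884 genes were higher and 724 lower. The 3 hyperplastic values all lay above the 3 normal ones for 12.4% of all genes tested and all below for 16.0%. These 12.4% and 16.0% are the background of statements on overlap for whole lists and for genes not called. For called genes, no overlap comes nearly always with the call and is a description only.

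**Figure D1:**
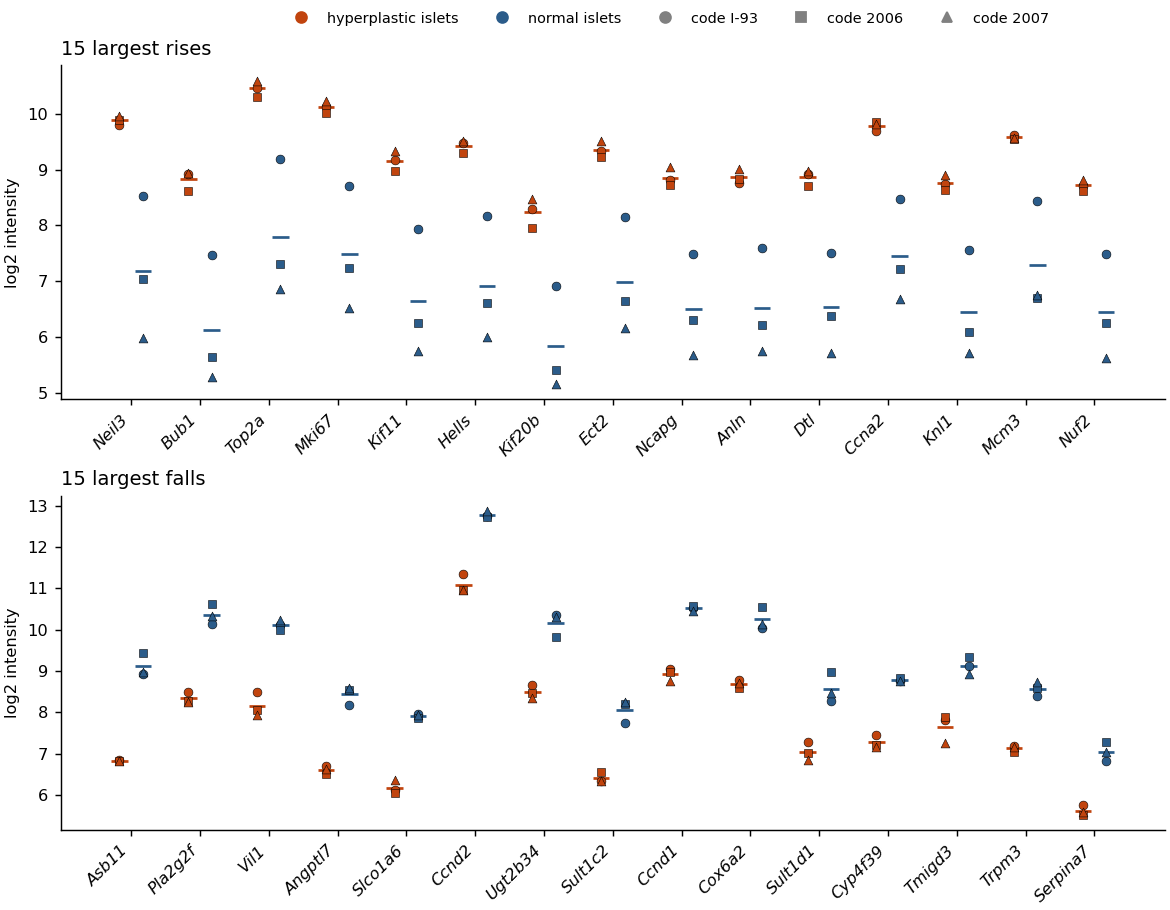
Log2 intensity of the 15 largest rises (top) and 15 largest falls (bottom), with hyperplastic islets in orange to the left of normal islets in blue. Symbols mark the title code of each array and bars mark the mean of 3 arrays. In the upper panel the NormalI-93 array (circle) is the highest normal array for every gene shown, and in the lower panel the normal arrays lie closer together than in the upper one.

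Genes of DNA synthesis and cell division rose together in hyperplastic islets. Of 237 measured members of 9 cell cycle lists, 198 rose, 4 fell and 35 did not pass the test, with a median difference of 1.35 log2. These 198 genes were 22.2% of all 890 rises, 155 of the 274 rises of at least 1 log2 and 37 of the 50 rises of at least 2 log2. The mean over all 237 members was 8.64, 8.61 and 8.66 log2 on the hyperplastic arrays, against 7.86, 7.30 and 7.03 on the normal arrays. The hyperplastic arrays thus lay close together, while the normal arrays were spread out, with I-93 the nearest to the hyperplastic level.

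Mki67, the antigen used to count dividing cells, measured 10.12, 10.02 and 10.24 log2 in hyperplastic islets, against 8.70, 7.24 and 6.52 in normal islets. The 2 groups did not overlap, and the normal value with the code I-93 was the nearest to the hyperplastic ones. The gene rose 6.24-fold (2.64 ± 0.36 log2, SE, adjusted p = 3.08e-05), and by 3.25 log2 without NormalI-93. Neil3, a DNA glycosylase of replicating cells, measured 9.81, 9.90 and 9.97 in hyperplastic islets, against 8.53, 7.03 and 5.98 in normal islets, and had the largest rise of all genes tested (2.71 ± 0.37 log2, adjusted p = 3.22e-05). Its difference was 3.39 log2 without NormalI-93 and 2.11 without Normal2007. Top2a, the topoisomerase that untangles replicated chromosomes, measured 10.46, 10.31 and 10.60, against 9.20, 7.30 and 6.86 in normal islets (rise of 2.67 ± 0.35 log2, adjusted p = 2.65e-05, and 3.38 without NormalI-93). The order of the 3 normal arrays was the same for all 3 genes, with NormalI-93 highest and Normal2007 lowest. All 3 kept their calls in every fit that left out 1 array.

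The position of NormalI-93 was measured over the whole group. For 192 of the 198 cell cycle genes called higher (97.0%) it held the highest of the 3 normal values. The median distance from the hyperplastic mean to the normal array was 1.01 log2 for NormalI-93, 1.62 for Normal2006 and 1.91 for Normal2007. The differences between samples of the same code had medians of 0.98, 1.58 and 1.96 log2. Outside the cell cycle lists, NormalI-93 held the highest normal value for 525 of 692 genes called higher (75.9%). Without this array 200 cell cycle members rose and the median was 1.55 log2. In whole-islet RNA, fewer cells of a type and less RNA per cell cannot be told apart.

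The promoters of 5 of these genes are shown because they hold elements through which the cell cycle is known to act on transcription. They stand for 5 of the lists, each by its largest rise. Each sequence is the 150 bases before the RefSeq transcript start on the transcribed strand, in the build GRCm38.p6. Capitals mark matches to an E2F core (TTNGCGC), to the CHR (TTTGAA or TTCGAA) and to the CCAAT box (CCAAT), each searched on both strands. The largest rises of the other lists are not shown. Of these, Neil3, Knl1 and Cdkn2c held no match in the 150 bases, and Rrm2 held 1 CCAAT box. The printed matches of Mcm3 and Bub1 are all CCAAT boxes. E2f8, at chr7:48881597-48881746 on the minus strand, encodes an atypical E2F repressor, and its run of 8 capitals holds overlapping matches to the CCAAT box and the E2F core. Mcm3 (chr1:20820313-20820462, minus) encodes a subunit of the replicative helicase. Bub1 (chr2:127831860-127832009, minus) encodes a mitotic checkpoint kinase, Kif11 (chr19:37376232-37376381, plus) the motor that separates the spindle poles, and Top2a (chr11:99024190-99024339, minus) the topoisomerase described above.
E2f8: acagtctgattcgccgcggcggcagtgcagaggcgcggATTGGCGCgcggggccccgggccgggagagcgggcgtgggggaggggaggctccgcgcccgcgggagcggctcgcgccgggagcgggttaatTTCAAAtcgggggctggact
Mcm3: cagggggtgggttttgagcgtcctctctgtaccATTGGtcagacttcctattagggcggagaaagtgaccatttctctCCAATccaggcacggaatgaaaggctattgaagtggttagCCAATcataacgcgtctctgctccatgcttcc
Bub1: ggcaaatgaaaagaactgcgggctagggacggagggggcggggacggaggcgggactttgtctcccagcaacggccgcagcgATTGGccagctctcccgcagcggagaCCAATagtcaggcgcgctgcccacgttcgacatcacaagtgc
Kif11: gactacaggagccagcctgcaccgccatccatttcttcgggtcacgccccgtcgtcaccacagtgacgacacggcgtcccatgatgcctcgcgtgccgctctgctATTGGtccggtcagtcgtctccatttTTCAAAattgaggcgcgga
Top2a: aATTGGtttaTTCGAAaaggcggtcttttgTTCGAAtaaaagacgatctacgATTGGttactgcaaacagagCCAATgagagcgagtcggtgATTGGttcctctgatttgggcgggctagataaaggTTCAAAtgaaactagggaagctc

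The CHR nearest the start began at base -20 in E2f8, -19 in Kif11 and -23 in Top2a, counted from the transcript start. In Bub1 a CHR began at base 15 after the start, and in Mcm3 E2F cores began at bases 40 and 43 after the start, so they lie outside the printed stretch. Shares were counted over RefSeq windows of 250 bases before to 50 bases after a start. The E2F core stood in 26.6% of the 188 windows of cell cycle genes called higher, against 8.33% of the 19177 windows of all genes tested. The CHR stood in 42.0% of the same 188 windows, against 16.5%, and the CCAAT box in 61.7%, against 37.4%. Among all 32851 windows of the table the shares were 6.36% for the E2F core, 19.2% for the CHR and 37.4% for the CCAAT box. A match is a run of letters, and whether a factor binds there was not measured.

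The elements were spread unevenly over the lists. The DNA replication genes that rose held the E2F core in 38.1% of 42 windows and the CHR in 23.8%. The spindle and cytokinesis genes that rose held the E2F core in 23.3% of 30 windows and the CHR in 83.3%, and the mitotic kinases and cyclins held them in 5.26% and 68.4% of 19 windows. Condensin, topoisomerase and chromatin genes held both often, with the E2F core in 47.1% and the CHR in 58.8% of 17 windows. For genes called lower the shares were 7.5%, 15.1% and 37.6% for the E2F core, the CHR and the CCAAT box, each within 1.5 percentage points of all genes tested. Genes called higher outside the cell cycle lists held the E2F core in 14.0% and the CHR in 21.1% of 691 windows.

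**Figure D2:**
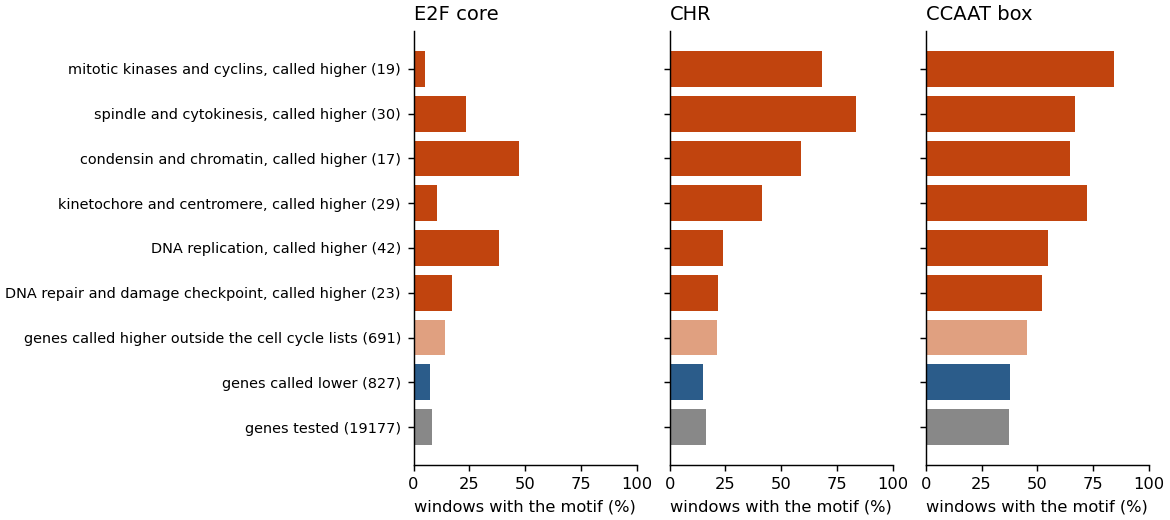
Share of RefSeq promoter windows with each element, in percent, for lists of cell cycle genes called higher (orange), other genes called higher (light orange), genes called lower (blue) and all genes tested (grey). The number of windows is in brackets. The CHR is most frequent in the spindle and cytokinesis list (83.3%), and the E2F core is more frequent in the DNA replication list (38.1%) than in the mitotic kinase list (5.26%).

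DNA replication genes rose in 44 of 47 cases (93.6%, background 4.46%), with a median of 1.32 log2. All 6 subunits of the MCM helicase rose, from 1.61 log2 for Mcm7 to 2.28 for Mcm3, which measured 9.62, 9.55 and 9.56 in hyperplastic islets, against 8.43, 6.70 and 6.75 in normal islets. Cdt1, which loads that helicase, rose by 1.75 ± 0.19 log2, and the sliding clamp Pcna by 1.34 ± 0.15. The 3 members that did not pass were Orc3 (0.01 log2), Orc4 (-0.18) and Orc5 (-0.10), subunits of the origin recognition complex, while Orc1 (0.57), Orc2 (0.38) and Orc6 (1.10) rose. Of 18 measured nucleotide synthesis genes, 8 rose, among them both subunits of ribonucleotide reductase, Rrm1 (1.74 ± 0.20) and Rrm2 (1.87 ± 0.26), and the thymidylate synthase Tyms (1.22 ± 0.15). The 10 that did not pass were the purine synthesis enzymes Ppat, Gart, Paics, Adsl and Gmps, the pyrimidine enzymes Cad and Umps and the folate cycle enzymes Shmt2, Mthfd1 and Mthfd2.

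DNA repair and damage checkpoint genes rose in 24 of 26 cases, with a median of 1.43 log2. Brca1, a homologous recombination factor, measured 8.28, 8.11 and 8.40 in hyperplastic islets, against 7.03, 6.32 and 5.94 in normal islets (1.83 ± 0.21 log2, adjusted p = 8.37e-06). The exonuclease Exo1 rose by 1.62 ± 0.18 log2 and the checkpoint kinase Chek1 by 1.27 ± 0.17. The damage kinase Atm stood at 0.17 ± 0.13 log2 and did not pass the test (adjusted p = 0.5022).

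Genes of mitosis rose in nearly all cases. Mitotic kinases and cyclins rose in 24 of 26 cases (median 1.72 log2), kinetochore and centromere genes in 30 of 33 (1.37), spindle and cytokinesis genes in 30 of 31 (1.91), and condensin, topoisomerase and chromatin genes in 20 of 20 (1.79). Bub1 measured 8.92, 8.62 and 8.94 in hyperplastic islets, against 7.47, 5.63 and 5.27 in normal islets (2.71 ± 0.35 log2, and 3.38 without NormalI-93). Cdk1, the kinase that starts mitosis, measured 8.78, 9.02 and 8.86, against 7.47, 6.63 and 6.19 in normal islets (2.12 ± 0.22, adjusted p = 6.26e-06). Neither pair of groups overlapped. The kinesin Kif20b (2.41 ± 0.30), the cytokinesis regulators Ect2 (2.37 ± 0.31) and Anln (2.35 ± 0.31), the condensin subunit Ncapg (2.36 ± 0.29), the S phase ubiquitin ligase adaptor Dtl (2.34 ± 0.27), the cyclin Ccna2 (2.34 ± 0.29) and the kinetochore proteins Knl1 (2.32 ± 0.31) and Nuf2 (2.27 ± 0.29) were among the 15 largest rises of all genes. The chromatin remodeller Hells (2.52 ± 0.31, and 3.14 without NormalI-93) and Kif11 (2.52 ± 0.35, and 3.17 without it) completed that set with Neil3, Bub1, Top2a, Mki67 and Mcm3.

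**Figure D3:**
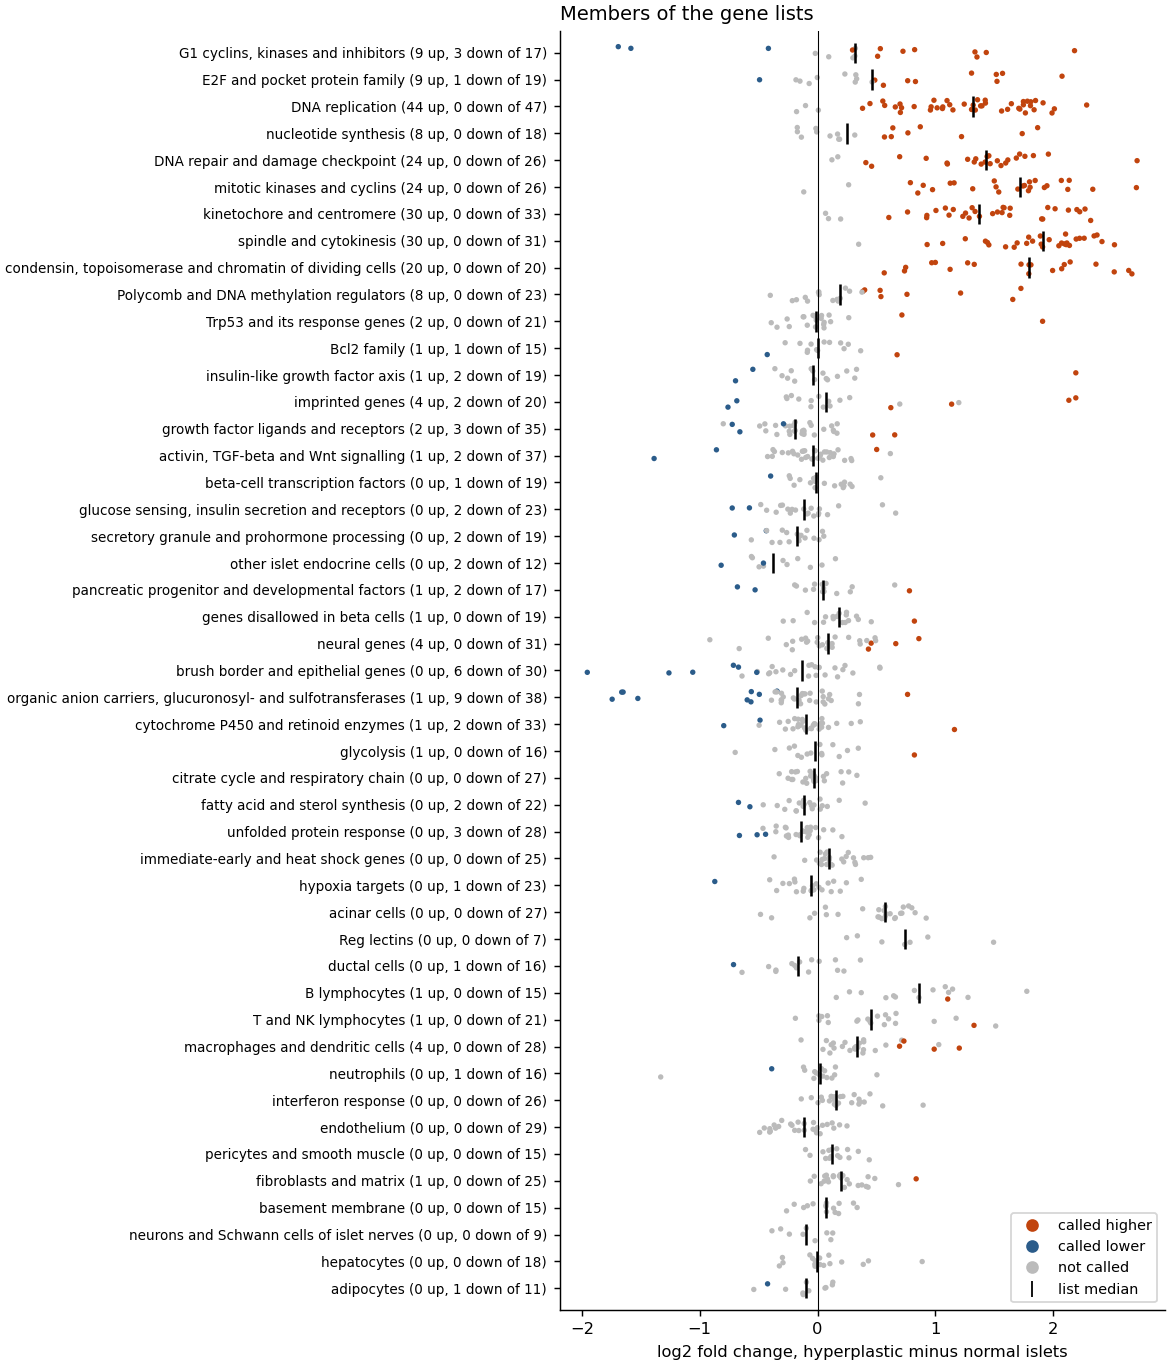
Log2 difference, hyperplastic minus normal islets, of every measured member of each gene list, with the median of each list as a black bar and the counts called higher and lower beside its name. The 9 cell cycle lists at the top lie mostly right of 0, while the other lists have smaller shares of their members called. Among those, the B lymphocyte (0.86), Reg lectin (0.74) and acinar (0.57) lists have the highest medians and the other islet endocrine cells (-0.38) the lowest.

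Genes that control entry into the cycle moved in both directions. Of 17 measured G1 cyclins, kinases and inhibitors, 9 rose (52.9%, background 4.46%) and 3 fell (17.65%, background 4.17%). The 3 falls were the D cyclins. Ccnd2, a D cyclin of beta cells, measured 11.35, 10.97 and 10.96 log2 in hyperplastic islets, against 12.76, 12.73 and 12.87 in normal islets (-1.69 ± 0.20 log2, adjusted p = 1.20e-05). Ccnd1 measured 9.06, 8.97 and 8.77 in hyperplastic islets, against 10.53, 10.57 and 10.46 in normal islets (-1.58 ± 0.13, adjusted p = 2.80e-07). For both genes the groups were more than 1 log2 apart on every array, and the 3 normal arrays lay close together, I-93 included. Ccnd3 fell by 0.42 ± 0.12 log2 (adjusted p = 0.0306), a call that ended without Normal2006, Normal2007, Hyperplastic2006 or Hyperplastic2007 (adjusted p = 0.0834 to 0.172). Their kinase partners stood at -0.02 ± 0.10 log2 for Cdk4 and 0.32 ± 0.16 for Cdk6, and neither passed the test.

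The cyclins and kinase of the next step rose. Ccne1 rose by 0.82 ± 0.14 log2 (adjusted p = 0.000528), Ccne2 by 1.43 ± 0.20 (3.52e-05) and Cdk2 by 1.35 ± 0.19 (4.48e-05). Inhibitors of the D cyclin kinases rose as well. Cdkn2c, which encodes p18Ink4c, measured 10.47, 10.42 and 10.63 in hyperplastic islets, against 9.33, 8.17 and 7.47 in normal islets, a 4.54-fold difference (2.18 ± 0.28 log2). Cdkn2a, the locus of p16Ink4a and Arf, measured 8.14, 8.46 and 8.23, against 7.41, 6.89 and 6.53 in normal islets (1.34 ± 0.17, adjusted p = 2.13e-05). The probe set does not part the 2 products of that locus. Cdkn2d rose by 0.73 ± 0.13 log2, and Cdkn2b by 0.53 ± 0.13 (a call that ended without Normal2007 or HyperplasticI-93, adjusted p = 0.0505 to 0.0939). Without NormalI-93 the differences were 2.69 log2 for Cdkn2c, 1.57 for Cdkn2a, -1.70 for Ccnd2 and -1.58 for Ccnd1.

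Of 19 E2F and pocket protein genes, 9 rose (47.4%, background 4.46%) and 1 fell (5.26%, background 4.17%). The atypical repressors E2f7 and E2f8 rose by 1.57 ± 0.18 and 2.08 ± 0.29 log2, the pocket protein Rbl1 by 1.31 ± 0.15 and the mitotic activator Foxm1 by 1.52 ± 0.19 (adjusted p = 8.37e-06 to 4.79e-05). E2f8 measured 8.15, 8.25 and 8.12 in hyperplastic islets, against 7.04, 5.93 and 5.32 in normal islets. The activator E2f1 measured 8.88, 8.83 and 8.65, against 8.45, 8.34 and 7.89 in normal islets (0.56 ± 0.14, adjusted p = 0.0104), and its call ended without Normal2007 or HyperplasticI-93 (0.054 to 0.083). E2f2 (0.33) and E2f3 (0.32) did not pass the test. The only fall was that of E2f5 (-0.49 ± 0.12, adjusted p = 0.00793), whose call ended without Normal2006 or Hyperplastic2007 (0.0537 to 0.0683). Rb1, the retinoblastoma gene itself, measured 9.45, 9.24 and 9.47, against 9.17, 8.61 and 8.99 in normal islets, and passed only with the title code as a block (0.46 ± 0.15, adjusted p = 0.0629 without and 0.0479 with the block).

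Of 21 measured genes that p53 is known to switch on, 2 rose (9.52%, background 4.46%) and 0 fell, with a median of -0.01 log2. The 2 were Ckap2 (1.91 ± 0.28), a spindle microtubule protein, and Gtse1 (0.72 ± 0.15), a microtubule-binding protein of the G2 and S phases. The ubiquitin ligase Mdm2 stood at 0.05 ± 0.09 log2, the BH3 gene Bbc3 at -0.09 ± 0.11 and Ccng1 at -0.39 ± 0.15, and none of these passed. Trp53 and Cdkn1a were not analysed here. In the Bcl2 family, 1 of 15 members rose (6.67%, background 4.46%) and 1 fell (6.67%, background 4.17%), which is near the background. Bcl2l11, the death-promoting BH3 protein Bim, measured 9.11, 8.87 and 8.96 in hyperplastic islets, against 8.55, 8.13 and 8.23 in normal islets (0.68 ± 0.12, adjusted p = 0.000575). The survival gene Bcl2l2 fell by 0.43 log2 (SE 0.12, adjusted p = 0.027), and that call ended without Normal2006, Normal2007, HyperplasticI-93 or Hyperplastic2007 (0.0803 to 0.103).

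Of 23 Polycomb and DNA methylation genes, 8 rose (34.8%, background 4.46%) and 0 fell, with a median of 0.19 log2. The calls of Suz12 (0.40) and Cbx2 (0.39), Polycomb subunits, ended without Normal2006, Normal2007 or HyperplasticI-93, that of Suz12 also without Hyperplastic2007 and that of Cbx2 without Hyperplastic2006 (adjusted p = 0.0554 to 0.184). Ezh2, the histone methyltransferase of Polycomb repressive complexes, measured 9.54, 9.53 and 9.77 in hyperplastic islets, against 8.41, 7.86 and 7.39 in normal islets (1.73 ± 0.19). Its paralogue Ezh1 stood at 0.01 ± 0.08 log2. The maintenance methyltransferase Dnmt1 measured 9.99, 9.87 and 9.88, against 9.12, 8.39 and 8.59 in normal islets (1.21 ± 0.14), and its partner Uhrf1 rose by 1.66 ± 0.20. The groups did not overlap for Ezh2 or Dnmt1, as for nearly all called genes. The methyltransferases Dnmt3a and Dnmt3b, which set new methylation, did not pass the test.

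Igf2, a fetal growth factor expressed from the paternal allele and known as a survival factor in this model, rose beside the cell cycle genes. It measured 10.57, 10.72 and 10.57 log2 in hyperplastic islets, against 9.51, 8.45 and 7.33 in normal islets. The hyperplastic values lay close together, while the normal values fell into the same order as Mki67, with I-93 highest. The difference was 4.57-fold (2.19 ± 0.36 log2, adjusted p = 0.000303), and 2.73 log2 without NormalI-93. Of the 19 measured genes of the insulin-like growth factor axis, Igf2 was the only rise (5.26%, background 4.46%) and 2 fell (10.5%, background 4.17%). Igfbp5, a binding protein, fell by 0.70 log2 (SE 0.16, adjusted p = 0.00587), and the receptor gene Igf1r fell by 0.55 (SE 0.15, adjusted p = 0.0281). The Igf1r call ended without NormalI-93, Normal2007, Hyperplastic2006 or Hyperplastic2007 (0.0658 to 0.138). Igf1 (0.32), the receptors Igf2r (-0.19) and Insr (-0.22) and the RNA-binding genes Igf2bp1 (-0.05) and Igf2bp3 (0.09) did not pass.

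Among 20 imprinted genes 4 rose (20.0%, background 4.46%) and 2 fell (10.0%, background 4.17%), with a median of 0.07 log2. Nnat, a proteolipid of the endoplasmic reticulum of beta cells, measured 11.51, 11.63 and 11.36 in hyperplastic islets, against 10.40, 9.38 and 8.31 in normal islets (2.13 ± 0.41, adjusted p = 0.00136, and 2.65 without NormalI-93). Plagl1, a zinc finger gene, rose by 1.14 ± 0.23 log2 (adjusted p = 0.00205). Zim1 rose by 0.62 ± 0.17, a call that ended without Normal2006, Normal2007, HyperplasticI-93 or Hyperplastic2007 (0.0761 to 0.116). Sgce fell by 0.69 log2 (SE 0.16), and the call ended without Normal2006 or Normal2007 (0.0536 to 0.0577). Mest fell by 0.76 log2 (SE 0.23, adjusted p = 0.0455) and did not pass with the title code as a block (0.0555) or when any 1 of the 6 arrays was left out (0.0642 to 0.181). Peg10 (1.20), Dlk1 (0.70) and Peg3 (0.05) did not pass, although the first 2 had differences as large as those of some called members.

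Of 35 growth factor ligands and receptors, 2 rose (5.71%, background 4.46%) and 3 fell (8.57%, background 4.17%), with a median of -0.19 log2. Of these 35 genes, 8 had a difference above 0, and for 15 all hyperplastic values lay below all normal ones (background 16.0%). Egf measured 7.67, 7.92 and 7.70 in hyperplastic islets, against 8.47, 8.33 and 8.46 in normal islets (-0.66 ± 0.09, adjusted p = 4.94e-05). Fgf1 rose by 0.66 ± 0.17, a call that ended without Normal2006, Normal2007 or Hyperplastic2006 (0.0554 to 0.0995). The other calls were the ligand genes Tgfa (0.47 ± 0.13), which did not pass when any array other than NormalI-93 was left out (0.0577 to 0.139), and Pdgfa (-0.29 ± 0.09), which did not pass when any array other than Normal2007 was left out (0.0607 to 0.152), and the glucagon receptor gene described with the islet genes. Vegfa, the main vessel growth factor, stood at -0.05 log2 and did not pass. Among 37 genes of activin, TGF-beta and Wnt signalling 1 rose (2.7%) and 2 fell (5.4%), which is near the background. Sfrp5, a secreted Wnt antagonist, measured 7.85, 7.84 and 7.71, against 9.11, 9.17 and 9.29 in normal islets (-1.39 ± 0.18, adjusted p = 2.70e-05), and Inha, the inhibin alpha subunit, fell by 0.86 log2 (SE 0.17). The rise was that of Tgfb1 (0.50 ± 0.14), a call that ended without NormalI-93, Normal2007, HyperplasticI-93 or Hyperplastic2006 (0.0538 to 0.108). The groups for Egf and Sfrp5 did not overlap and the normal arrays lay close together for both.

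The falls had no single leading list. The median SD of the normal arrays was 0.127 log2 for falls, near the 0.129 of all genes, and 0.219 for rises. Asb11, which encodes an ankyrin repeat adaptor of a ubiquitin ligase, measured 6.84, 6.82 and 6.83 log2 in hyperplastic islets, against 8.92, 9.45 and 8.97 in normal islets, the largest fall of all genes (-2.28 ± 0.14, adjusted p = 6.57e-09). Pla2g2f, a secreted phospholipase, fell by 2.02 log2 (SE 0.29), and Angptl7, an angiopoietin-like secreted protein, fell by 1.82 (SE 0.14). Cox6a2, the muscle form of a cytochrome oxidase subunit, measured 8.78, 8.59 and 8.72 in hyperplastic islets, against 10.05, 10.56 and 10.15 in normal islets (-1.56 ± 0.17). The cation channel gene Trpm3 fell by 1.45 log2 (SE 0.33). Tmigd3 fell by 1.48 (SE 0.28), Cyp4f39, a cytochrome P450, fell by 1.51 (SE 0.27) and Serpina7, the thyroxine-binding globulin, fell by 1.43 (SE 0.25). All of these kept their calls in each of the 19 other settings tried. None of the normal values of Asb11 or Cox6a2 came within 1 log2 of a hyperplastic value.

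Among brush border and epithelial genes 6 of 30 fell (20.0%, background 4.17%) and 0 rose, with a median of -0.14 log2. Vil1, the actin-bundling protein villin, measured 8.49, 8.06 and 7.93 in hyperplastic islets, against 10.11, 10.00 and 10.24 in normal islets (-1.95 ± 0.20, adjusted p = 5.66e-06). Tspan8, a tetraspanin, measured 8.52, 8.65 and 8.20, against 9.42, 9.90 and 9.84 in normal islets (-1.26 ± 0.23). The tight junction gene Cldn7 fell by 1.06 log2 (SE 0.16) and the membrane protease Tmprss2 fell by 0.71 (SE 0.12). The groups did not overlap for any of these. The calls of Cldn3 (-0.52 ± 0.14) and of the keratin Krt18 (-0.67 ± 0.21) were less stable. Cldn3 did not pass without Normal2006, Normal2007, HyperplasticI-93 or Hyperplastic2007 (0.0589 to 0.142), and Krt18 did not pass with the block (0.0586) or when any array other than NormalI-93 was left out (0.0549 to 0.213). The E-cadherin gene Cdh1 (-0.39), Epcam (-0.51) and the keratins Krt8 (0.06) and Krt19 (-0.08) did not pass.

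Carriers and conjugating enzymes formed the list with the most falls. Of 38 organic anion carriers, glucuronosyl- and sulfotransferases 9 fell (23.7%) and 1 rose. Slco1a6, an organic anion carrier, measured 6.12, 6.05 and 6.36 in hyperplastic islets, against 7.95, 7.87 and 7.94 in normal islets (-1.74 ± 0.18). Ugt2b34, a glucuronosyltransferase, measured 8.67, 8.48 and 8.35, against 10.37, 9.82 and 10.30 in normal islets (-1.66 ± 0.17, adjusted p = 5.66e-06). The sulfotransferases Sult1c2 and Sult1d1 stood at -1.65 log2 (SE 0.16) and -1.53 log2 (SE 0.24) and were called lower, and Gstm2, a glutathione transferase, fell by 0.57 (SE 0.13). The other 4 falls, Slco2a1, Slc22a5, Abcc4 and Gstt1 (which did not pass with the block, 0.0526), were between -0.34 and -0.60 log2, and each call ended without Hyperplastic2007 and without 2 or more other arrays (NormalI-93, Normal2006, Normal2007, HyperplasticI-93 or Hyperplastic2006, adjusted p = 0.0532 to 0.236). The carrier gene Slco4a1 went the other way (0.76 ± 0.14, adjusted p = 0.000777). In the list of cytochrome P450 and retinoid enzymes 2 of 33 fell (6.06%, background 4.17%) and 1 rose (3.03%, background 4.46%). The falls were Cyp4f13 (-0.49 ± 0.10) and Cyp2j6 (-0.80 ± 0.19, not passed without Hyperplastic2007, 0.0528), and the rise was that of Cyp39a1, an oxysterol hydroxylase. It measured 8.87, 8.87 and 9.02, against 7.96, 7.81 and 7.50 in normal islets (1.16 ± 0.19).

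Metabolic and stress lists held few calls. Of 16 glycolysis genes 1 rose (6.25%, background 4.46%), the lactate carrier Slc16a1, and with the block 2 rose, with the hexokinase gene Hk2. Slc16a1 is also among the genes that adult beta cells normally keep silent. It was the only 1 of 19 such genes called (5.26%, or 2 genes with the title code as a block). It measured 6.77, 6.67 and 6.57 in hyperplastic islets, against 5.85, 5.65 and 6.05 in normal islets (0.82 ± 0.16, adjusted p = 0.00169). Of 27 citrate cycle and respiratory chain genes 0 were called by limma without the block and 1 with it, Suclg1 (-0.33 log2, adjusted p = 0.0492 with the block). Of 22 genes of fatty acid and sterol synthesis 2 fell (9.09%, background 4.17%), the sterol oxidase Msmo1 (-0.67 ± 0.10) and Insig1 (-0.57 ± 0.13), a sterol sensor of the endoplasmic reticulum. Among 28 unfolded protein response genes 3 fell (10.71%, background 4.17%) and 0 rose. The chaperone Dnajb9 (-0.51 ± 0.16), the glutathione-degrading enzyme Chac1 (-0.66 ± 0.20) and the membrane protein Wfs1 (-0.44 ± 0.13) had adjusted p of 0.0298 to 0.0492. Chac1 did not pass with the block (0.0522), and each of the 3 calls ended without Normal2006, Hyperplastic2006 or Hyperplastic2007. Those of Dnajb9 and Chac1 also ended without Normal2007 or HyperplasticI-93 (0.0523 to 0.236 over the 3 genes). Of 23 hypoxia targets 1 fell (4.35%, near the background of 4.17%), the mitochondrial gene Bnip3 (-0.87 ± 0.23), and the call ended without Normal2006 or Hyperplastic2007 (0.066 to 0.0977). Immediate-early and heat shock genes had 0 of 25 called by limma without the block and 1 with it, Hsp90aa1 (0.32 log2, adjusted p = 0.0335 with the block).

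Few genes of islet identity and hormone secretion passed the test. Many genes of secretion, of granules and of other endocrine cells still lay lower on all 3 hyperplastic arrays than on any normal one. This held for 10 of 23 glucose sensing and secretion genes, 9 of 19 granule genes and 8 of 12 other endocrine genes (background 16.0%). The reverse held for 3, 0 and 0 genes of these lists (background 12.4%). Beta-cell transcription factors differed, with 3 of 19 lower without overlap, near the background, and 5 higher. Their median was -0.013 log2, the same as over all genes. Of 19 beta-cell transcription factors 1 was called, lower (5.26%, background 4.17%). This was Hnf4a (-0.40 ± 0.11), and it did not pass when any 1 of the 6 arrays was left out (0.0536 to 0.0944). Pdx1, the central beta-cell factor, measured 10.08, 9.87 and 9.84 in hyperplastic islets, against 10.15, 10.29 and 10.07 in normal islets (-0.24 ± 0.17), and Mafa stood at -0.06 ± 0.20 log2. Among 23 genes of glucose sensing and secretion 2 fell (8.70%, background 4.17%), both of them receptors for gut and islet hormones. The glucagon receptor gene Gcgr measured 8.31, 8.17 and 8.06, against 9.0, 8.93 and 8.78 in normal islets (-0.72 ± 0.13, adjusted p = 0.000892). The incretin receptor gene Gipr measured 9.67, 9.70 and 9.45, against 10.14, 10.25 and 10.17 in normal islets (-0.58 ± 0.12, adjusted p = 0.00339). The groups did not overlap for either receptor. The glucose carrier Slc2a2 (-0.48 ± 0.37) and the incretin receptor Glp1r (-0.35 ± 0.29) did not pass, although all of their hyperplastic values lay below all normal ones (background 16.0%).

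Granule genes had a list mean of 10.50, 10.49 and 10.50 log2 in hyperplastic islets, against 10.73, 10.67 and 10.78 in normal islets. Of 19 members 2 fell (10.5%, background 4.17%), the monoamine carrier Slc18a1 (-0.71 ± 0.14, adjusted p = 0.00235) and the vesicle protein Syp (-0.44 ± 0.12, adjusted p = 0.0303). The Syp call ended when any 1 of the 6 arrays was left out (0.0527 to 0.131). The median of the list was -0.17 log2, against -0.013 over all genes.

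Genes of the other endocrine cells had the lowest median of the islet lists (-0.38 log2), with 2 of 12 called lower (16.7%, background 4.17%). Hhex, a factor of delta cells, measured 7.23, 6.60 and 6.88 in hyperplastic islets, against 7.45, 7.84 and 7.88 in normal islets (-0.82 ± 0.18, adjusted p = 0.00411). The alpha-cell factor Irx1 fell by 0.46 log2 (SE 0.13), a call that ended without Normal2006, Normal2007, HyperplasticI-93 or Hyperplastic2007 (0.0742 to 0.11). The hormone genes themselves did not pass, with Gcg at -0.17, Sst at -0.55, Ppy at -0.46 and Pyy at -0.56 log2. The SE of Gcg was 0.505 log2, although its SD was 0.019 in hyperplastic and 0.058 in normal islets. The pooled spread takes in islet tumours, where the SD of Gcg was 1.146. The beta-cell hormone Iapp stood at -0.12 log2. Of 17 progenitor and developmental factors 2 fell (11.8%, background 4.17%) and 1 rose (5.88%, background 4.46%). Gata6 (-0.68 ± 0.11) and the endocrine progenitor factor Neurog3 (-0.53 ± 0.11) fell. Sox4 rose by 0.78 ± 0.20, a call that ended without Normal2006, Normal2007, HyperplasticI-93 or Hyperplastic2007 (0.0504 to 0.0835).

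Of 31 neural genes 4 rose (12.9%, background 4.46%) and 0 fell, with a median of 0.09 log2. The neuronal RNA-binding gene Elavl3 measured 7.60, 7.86 and 7.91 in hyperplastic islets, against 6.99, 6.90 and 6.91 in normal islets (0.86 ± 0.16, adjusted p = 0.000771). Nova1, a neuronal splicing factor, measured 8.90, 8.96 and 9.07, against 8.39, 8.30 and 8.24 in normal islets (0.66 ± 0.11, adjusted p = 0.000361). Celf4, another RNA-binding gene, rose by 0.46 ± 0.10 and Snap91, an endocytic adaptor of synapses, by 0.43 ± 0.10. The groups did not overlap for Elavl3 or Nova1, and for both the NormalI-93 value lay beside those of the other normal arrays.

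Markers of cells other than endocrine cells moved with the title code as well as with the group. Acinar genes, the digestive enzymes of the surrounding exocrine tissue, averaged 10.57, 11.14 and 8.96 log2 in hyperplastic islets, against 10.35, 11.08 and 7.89 in normal islets. Hyperplastic2007 and Normal2007 were the lowest of their groups, and 0 of 27 members passed the test. Cpa1, a carboxypeptidase, measured 12.85, 13.19 and 11.40, against 12.69, 13.12 and 9.67 in normal islets. The Reg lectins averaged 8.35, 8.80 and 6.69, against 7.34, 8.45 and 5.87 in normal islets, again lowest on Hyperplastic2007 and Normal2007, with 0 of 7 members called. Without Normal2007 the median of the acinar list was -0.51 log2, against 0.57 with it.

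B lymphocyte genes averaged 8.21, 7.68 and 6.85 log2 in hyperplastic islets, against 6.77, 6.73 and 6.66 in normal islets. The 3 hyperplastic arrays thus differed by over 1 log2, with HyperplasticI-93 the highest and Hyperplastic2007 near the normal arrays. Of 15 members 1 rose without the block, Cd22, and 10 with the title code as a block (background 4.46% and 5.02%). Cd22, an inhibitory receptor of B cells, measured 8.03, 7.70 and 6.85, against 6.56, 6.31 and 6.39 in normal islets (1.11 ± 0.32, adjusted p = 0.031, and 0.00197 with the block). Its call without the block ended when any array other than Hyperplastic2007 was left out (0.0501 to 0.167). The B-cell antigen Ms4a1 measured 8.63, 7.69 and 6.22, against 5.88, 5.47 and 5.86 in normal islets, and did not pass without the block (adjusted p = 0.1172, and 0.0222 with it). Leaving out Hyperplastic2007 gave 8 members called.

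T and NK cell genes averaged 7.24, 6.92 and 6.65, against 6.45, 6.40 and 6.43 in normal islets. Of 21 members 6 rose with the block (background 5.02%). Without it 1 of 21 members rose (4.76%, near the background of 4.46%). That member, the leukocyte phosphatase Ptprc (1.33 ± 0.41, adjusted p = 0.0498), did not pass when any array other than Hyperplastic2007 was left out (0.0636 to 0.235). Macrophage and dendritic cell genes averaged 8.06, 7.98 and 7.68, against 7.55, 7.50 and 7.48 in normal islets, and 4 of 28 rose (14.29%, background 4.46%). Lyz2, a lysozyme of myeloid cells, measured 10.49, 10.21 and 9.27, against 9.16, 8.67 and 8.53 in normal islets (1.20 ± 0.28, adjusted p = 0.00807), and its call ended without HyperplasticI-93 (0.0659). In each of these immune lists the hyperplastic arrays had the order HyperplasticI-93, Hyperplastic2006, Hyperplastic2007 from high to low. All hyperplastic values lay above all normal ones for 9 of 15 B lymphocyte, 13 of 21 T and NK cell and 15 of 28 macrophage genes (background 12.4%). The reverse held for 0, 1 and 0 genes (background 16.0%). Cd68, a lysosomal protein of macrophages, rose by 0.70 ± 0.19, and its call ended without Normal2007, Hyperplastic2006 or Hyperplastic2007 (0.0604 to 0.131). The other rises were Mpeg1 (0.73 ± 0.21), which did not pass when any array other than NormalI-93 was left out (0.0625 to 0.129), and Laptm5 (0.99 ± 0.30), which did not pass when any array other than Hyperplastic2007 was left out (0.0663 to 0.203). The macrophage list had 1 to 3 members called when 1 array was left out. With the mean of the lymphocyte genes as a covariate, 658 genes were called higher and 445 lower, and the cell cycle lists had 192 members higher.

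Vessel and connective tissue genes held 1 call in all. Endothelial genes had 0 of 29 members called and a median of -0.11 log2. Their mean was 8.11, 8.08 and 8.17 in hyperplastic islets, against 8.29, 8.13 and 8.35 in normal islets. The endothelial receptor gene Kdr stood at -0.36 ± 0.18 and Pecam1 at 0.02. Pericyte genes had 0 of 15 called, basement membrane genes 0 of 15, and fibroblast and matrix genes 1 of 25 (4.0%, background 4.46%). That member, the fibronectin gene Fn1, measured 8.34, 8.23 and 7.94, against 8.02, 6.99 and 6.99 in normal islets, so that the NormalI-93 value lay among the hyperplastic ones. Its difference was 0.84 ± 0.22 log2 (adjusted p = 0.0163), or 1.18 without NormalI-93, and the call ended without Normal2006, Normal2007, HyperplasticI-93 or Hyperplastic2006 (0.0576 to 0.112). Interferon response genes had 0 of 26 called, although 9 lay higher without overlap (background 12.4%). Hepatocyte genes had 0 of 18 called, and nerve and Schwann cell genes 0 of 9. The share called lower was 1 of 16 ductal genes (6.25%, Pkhd1, -0.71 ± 0.15), 1 of 11 adipocyte genes (9.09%, Pparg, -0.42 ± 0.12) and 1 of 16 neutrophil genes (6.25%, Mmp8, -0.39 ± 0.10), against a background of 4.17%. The calls of Pparg and Mmp8 ended without Normal2006, Normal2007 or HyperplasticI-93, that of Pparg also without Hyperplastic2007 and that of Mmp8 without Hyperplastic2006 (0.0611 to 0.15 for the 2 genes). Mmp8 was dim, at 4.49, 4.48 and 4.67 log2, against 4.87, 4.97 and 4.97 in normal islets, where the lowest array median was 7.08. The part of these cell types in the results above was not tested beyond the acinar and lymphocyte covariates.

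**Figure D4:**
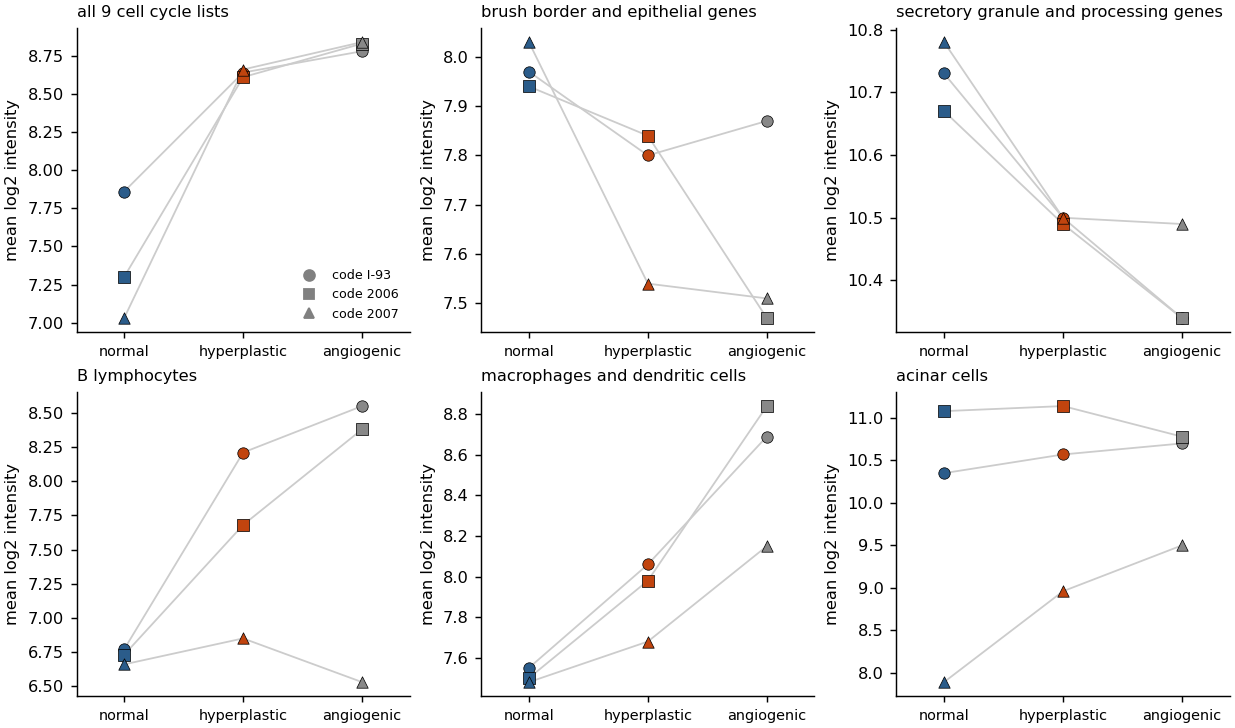
Mean log2 intensity of 6 gene lists on each normal (blue), hyperplastic (orange) and angiogenic (grey) array, with lines joining arrays of the same title code. The cell cycle mean lies between 8.61 and 8.66 on the 3 hyperplastic arrays and between 7.03 and 7.86 on the normal arrays. Among hyperplastic arrays, B lymphocyte genes are highest on HyperplasticI-93 (8.21) and lowest on Hyperplastic2007 (6.85), and acinar genes are lowest on Hyperplastic2007, Normal2007 and Angiogenic2007 within their groups.

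The genes called here were also followed over the later lesions. The mean level of the 890 genes called higher was 7.59 log2 in normal, 8.47 in hyperplastic and 8.60 in angiogenic islets. It was 8.68 in tumours of the islets, 8.69 in the metastasis-like primary tumours and 8.86 in metastases of the liver. The mean of the 832 genes called lower was 8.49, 7.92, 7.82, 7.67, 7.58 and 7.56 log2 in the same order. Since the normal and hyperplastic arrays chose these genes, every distance from the normal mean is a description and may be overstated. Single genes differed from these means. Igf2 averaged 8.30 log2 in the metastasis-like primary tumours, against 8.43 in normal islets, and Sgce, lower in hyperplastic islets, averaged 9.91, against 8.34 in normal islets.

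Islet tumours against angiogenic islets, 5 against 3 arrays, share no sample with the comparison above. Both comparisons came from the same fit and share each gene's spread, so a gene with a small spread is likelier to be called in both. The angiogenic arrays also carry the title codes of the normal and hyperplastic arrays. How much this adds to the shared calls was not tested. Of the 832 genes lower in hyperplastic islets, 151 (18.15%) were also called lower in tumours than in angiogenic islets, where 6.45% of all genes were, and 24 (2.885%) were called higher, where 3.09% were. Of the 890 genes higher in hyperplastic islets, 44 (4.944%) were higher in tumours and 28 (3.146%) lower. The shared falls were 11.74% of the 1286 tumour falls, and the shared rises 7.131% of the 617 tumour rises. Ccnd2 averaged 8.88 log2 in islet tumours and 10.54 in angiogenic islets (-1.66, adjusted p = 6.53e-06), Ccnd1 8.32 and 9.11 (-0.79, 0.000169) and Vil1 6.28 and 7.46 (-1.18, 0.000308). These genes were thus also lower in tumours than in angiogenic islets, although Ccnd1 was not lower in angiogenic than in hyperplastic islets (9.11 against 8.93). The mean of the fibroblast and matrix list was 8.09 in tumours and 9.18 in angiogenic islets. Whether cell make-up contributes was not tested. Tspan8 averaged 5.53 in tumours and 7.87 in angiogenic islets (-2.34, adjusted p = 2.95e-07), and Ugt2b34 5.48 and 7.76 (-2.28, 4.38e-09). In contrast, Mki67 stood at 10.61 in tumours and 10.49 in angiogenic islets (0.12, adjusted p = 0.8473), and none of the 15 largest rises of hyperplastic islets was called between tumours and angiogenic islets. Most of the 15 largest falls were not called there either. These were Asb11, Pla2g2f, Angptl7, Slco1a6, Sult1c2, Cox6a2, Cyp4f39, Tmigd3, Trpm3 and Serpina7 (limma adjusted p = 0.0517 to 0.837). Elavl3 averaged 9.0 in tumours and 8.03 in angiogenic islets and was called higher (0.98, adjusted p = 0.000147).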

How the data were processed

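The log2 intensities are the authors' deposited values. Per the labels and the series text, RNA was amplified and labelled with a sense target assay for whole transcripts, and aroma.affymetrix served to process the images. Its version and the background correction and normalization used were not stated there, and the log2 unit was read from the values. Of 35511 probe sets, 21789 had 1 gene symbol in the platform table, 1621 had several and 12101 were not listed. Of the first, the probe set with the highest mean over the 22 arrays stood for each gene, which left 19938 genes. Depth does not apply to arrays, and precision is limited by the number of arrays.

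All 22 arrays were fitted in R 4.3.3 by limma 3.58.1. The model held 1 mean for each of 6 groups and left 16 residual degrees of freedom. The fit was tested on simulated data. Errors of differences are standard errors. They rest on a spread per gene pooled over all groups, so they can lie above or below what the compared arrays alone would give. For Mki67 the SE was 0.355 log2, with an SD of 1.112 in normal islets. The title codes were taken to pair samples, since deviations from the group mean correlated across genes between same-code hyperplastic and normal arrays. The values were 0.197 for HyperplasticI-93 with NormalI-93, 0.4475 for Hyperplastic2006 with Normal2006 and 0.413 for Hyperplastic2007 with Normal2007, each above 0.1. Other codes gave -0.3679 to -0.05832. A group's deviations cancel out for each gene, so positive same-code values pull the others down. The negative values are therefore not separate support for the pairing. Promoter sequences are RefSeq windows of GRCm38.p6. They were found for 15614 of the genes tested.

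The comparison, the 49 gene lists, the tests and the alternatives were chosen with earlier results of these data known. Named genes were the 15 largest rises and falls among called genes with a proper name, up to 6 called members of each list with the smallest adjusted p, a fixed set (Ins1, Ins2, Iapp, Gcg, Sst, Mki67, Ccnd1, Ccnd2, Trp53, Cdkn1a, Rb1, E2f1, Vegfa, Pecam1, Cpa1, Krt19, Igf2 and Xist), and members that define a list. Ins1 was not analysed here. Alternatives were the title code as a block, fits of 6 or 9 arrays, median centring, quantile normalization, the mean over probe sets, a filter on low values leaving 14953 genes, every probe set tested, a robust trended variance, weights for arrays, acinar and lymphocyte covariates, a minimum change of 1 log2 and leaving out each array. Figures were drawn with matplotlib 3.10.9.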

Additional observations from a re-analysis of the deposited data

How the results depend on the processing

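The median of the 237 cell cycle members ranged from 1.20 to 1.55 log2 and the members called higher from 189 to 201 over all settings. Of 158 named genes 148 were called, 118 of these were called in each of 19 other settings, and 0 called genes changed direction. With the title code as a replicate block over all arrays 1871 genes were called, 1000 higher and 871 lower, of which 1669 were among the 1722 without it. Among list members the block ended the calls of Mest, Krt18, Chac1, Gstt1 and Cdkn1b and added 23, of which 14 were lymphocyte genes and the others Rb1, Bmi1, Fzd7, Hk2, Cdh17, Cftr, Suclg1, Hsp90aa1 and Lyz1. Fitted with the block on the 6 arrays alone, 1255 genes were lower, against 832. Centring on the tested genes gave 1277 lower. With the lymphocyte mean as a covariate 1103 genes were called and 445 were lower. A minimum change of 1 log2 left 343, of which 274 were higher and 69 lower. Leaving out 1 array gave 1162 to 1608 calls, with 643 to 884 higher and 424 to 724 lower. The count of falls was 424 without Hyperplastic2007, 490 without Normal2006, 541 without HyperplasticI-93 and 552 without Hyperplastic2006. The causes of these shifts were not tested. The signs of 3 uncalled genes turned. Pecam1, at 0.022 log2, was -0.009 and -0.025 with median centring on all probe sets and on the tested genes, -0.074 with array weights, -0.179 with the lymphocyte covariate, -0.159 without Normal2006, -0.048 without HyperplasticI-93 and 0.169 without Normal2007. Cpa1 ranged from -0.425 without Normal2007 to 1.303 without Normal2006. Krt19 ranged from -0.414 without Normal2006 to 0.334 without Hyperplastic2007, and was 0.305 without Normal2007. Brightness over background was not used here, so differences between dim genes may be understated.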

Other observations

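Outside the lists, and chosen after their values were seen, several further genes were high in hyperplastic islets with the same spread of normal arrays as the cell cycle genes. The amino acid carrier gene Slc38a5 measured 11.43, 11.84 and 11.73 log2 in hyperplastic islets, against 10.51, 9.79 and 8.85 in normal islets (1.95 ± 0.34 log2, SE, limma adjusted p = 0.000584). Stmn1, a microtubule-destabilising protein, measured 11.00, 11.21 and 11.12, against 9.85, 9.05 and 8.12 in normal islets (2.10 ± 0.26). The fatty acid desaturase gene Fads2 rose by 1.49 ± 0.16, the guidance ligand gene Slit1 by 1.60 ± 0.29, the homeobox gene Barhl1 by 1.21 ± 0.18 and Clgn, a chaperone known from the testis, by 2.11 ± 0.23. For each of these 6 genes NormalI-93 held the highest normal value, as for 75.9% of all 692 genes called higher outside the cell cycle lists. Because the 6 genes were chosen after their values were seen, this is a description only. Each call held when any 1 array was left out, as did 551 of all 890 rises.

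A further 7 genes, also chosen after their values were seen and because they were lower in hyperplastic islets, are given as single genes. The sodium channel subunit genes Scnn1b and Scnn1g measured 8.71, 8.51 and 8.44 and 6.96, 6.78 and 7.09 log2 in hyperplastic islets, against 9.84, 10.01 and 10.00 and 8.12, 8.46 and 8.34 in normal islets (-1.39 ± 0.28 and -1.36 ± 0.20 log2). The mineralocorticoid receptor gene Nr3c2 fell by 1.07 log2 (SE 0.18), the vitamin D receptor gene Vdr fell by 1.14 (SE 0.24), the deiodinase gene Dio1 fell by 1.29 (SE 0.23), the aminopeptidase gene Enpep fell by 0.97 (SE 0.16) and the epithelial defensin gene Defb1 fell by 1.32 (SE 0.22). The groups did not overlap for any of these 7 genes, as for 828 of all 832 falls. Each call held when any 1 array was left out, as did 302 of all 832 falls. In islet tumours Vdr averaged 7.40 log2, against 8.82 in angiogenic islets (-1.41, adjusted p = 0.000307).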
